A study of Mus musculus with 6 samples.

Results

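The endothelin, Dlx and Hand genes pattern the pharyngeal arches, and 9 of the 10 genes considered here (Edn1, Dlx1, Dlx2, Dlx3, Dlx5, Dlx6, Hand1, Hand2 and Gsc) were measured by 11 of the 22626 probe sets tested. They were chosen by gene symbol, as every probe set whose only listed symbol is one of these names. Ednra, the endothelin receptor, was not analysed here, since no probe set with 1 gene symbol carries its name. Dlx3 and Hand1 each had 2 probe sets and the other genes had 1.

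The study compared wild-type mouse embryos with Hoxb1 mutant embryos at E10.5, a stage at midgestation. The tissue was mainly rhombomere 4, the hindbrain segment that expresses Hoxb1, with branchial arch tissue around it. Each group held 3 arrays, and each array held RNA from a pool of segments of several embryos, stated to be an independent biological replicate. The sources used here do not give the mutant allele, the zygosity, the strain or the number of embryos in a pool. In such pools, fewer cells of a type and less RNA per cell cannot be told apart.

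Crest cells that leave the hindbrain at the level of rhombomere 4 fill the second arch. In the arches, endothelin-1 is secreted by epithelium, core mesoderm and endothelium, and it acts through the receptor Ednra on crest mesenchyme. There it promotes the distal (ventral) programme, in which Dlx5 and Dlx6 act upstream of Dlx3, Hand2 and, further on, Gsc and Hand1, while Dlx1 and Dlx2 are expressed along the whole proximal to distal axis. Dlx genes lie in convergent pairs, and Dlx1 and Dlx2, and Dlx5 and Dlx6, are neighbours in the genome.

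Promoter sequences from RefSeq (GRCm38.p6) were matched for 6 of the 10 genes: Dlx1, Dlx2, Edn1, Ednra, Gsc and Hand2. The 250 bases before the listed start were searched on both strands for TGATNNAT, a core bound by Hox proteins with their Pbx partners, and for the homeodomain cores TAATTA and TAATNG, of which Dlx proteins bind forms; no 2 of these matches overlapped. TGATNNAT was in 0 of the 6 windows, and in 7.68% of all 32851 windows of this length. TAATTA was in 1 of the 6, that of Hand2, and in 4.84% of all windows. TAATNG was in 2 of the 6, Edn1 and Hand2, and in 18.5% of all. The windows of Edn1, the gene whose groups stood apart, and of Hand2, the gene with both homeodomain cores, are shown because they carry these matches, in capitals. The Edn1 window is chr13:42301226-42301475 and the Hand2 window chr8:57320733-57320982, both on the plus strand.
Edn1: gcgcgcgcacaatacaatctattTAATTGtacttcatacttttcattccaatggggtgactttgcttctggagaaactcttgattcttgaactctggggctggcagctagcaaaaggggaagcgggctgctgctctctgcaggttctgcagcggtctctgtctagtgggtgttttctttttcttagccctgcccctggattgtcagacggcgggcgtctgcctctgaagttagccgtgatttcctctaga
Hand2: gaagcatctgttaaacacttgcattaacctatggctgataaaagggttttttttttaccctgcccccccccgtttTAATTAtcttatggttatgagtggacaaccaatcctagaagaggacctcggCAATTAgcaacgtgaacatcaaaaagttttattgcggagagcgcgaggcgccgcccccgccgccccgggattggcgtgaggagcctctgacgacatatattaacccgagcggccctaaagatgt
A match of these letters is a description of the window and not a measured binding site.

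Values are deposited intensities on a linear scale. Bacterial control probe sets, which have no target in mouse RNA, had a 95th percentile of 61.5, used here as the upper edge of background. Their highest single reading was 121.7. Differences are those of mean log2(intensity + 16), mutant minus wild type, so that differences of dim probe sets are understated, and tests are those of limma over all 22626 probe sets. Hoxb1 itself lay between 341 and 588 on the wild-type arrays and between 35.3 and 60.8 on the mutant arrays, at or below background in every mutant pool and at least 6.88-fold higher in wild type (fitted log2 difference -2.78, SE 0.24, limma adjusted p = 0.0695). The sources used here do not say whether its probe set lies in the altered part. Arrays correlated at 0.976 to 0.984 within groups and 0.973 to 0.983 between groups. Signal for 18S ribosomal RNA (mean log2) was 12.1 and 11.3 in wild-type replicates 2 and 3 and 6.36 to 7.03 on the other 4 arrays. The number of arrays limits the precision.

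None of the 11 probe sets passed limma's adjusted threshold of 0.05, which 0.0% of all probe sets passed. Their adjusted p ran from 0.833 to 0.952. By unadjusted p under 0.05 there was 1, Edn1, among 11, against 5.76% of all probe sets. By mean, 8 of 11 probe sets and 6 of 9 genes were lower in mutants, where 54.2% of all probe sets were lower. The median log2 difference was -0.28 over the 11 and -0.021 over all probe sets; without wild-type replicate 3 these were -0.11 and -0.030. Without wild-type replicates 2 and 3, 5 of the 11 were lower in mutants. A log2 difference of at least 0.5 in size was seen in 5 of 11, against 6.01% of all probe sets. The 11 were also noisier than most, with a median standard error of 0.26 against 0.16 over all probe sets, and 7 of 11 lay above background on all 6 arrays, against 68.2% of all. The 3 genes with a higher mean in mutants were Edn1, Dlx6 and Dlx1.

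**Figure D1:**
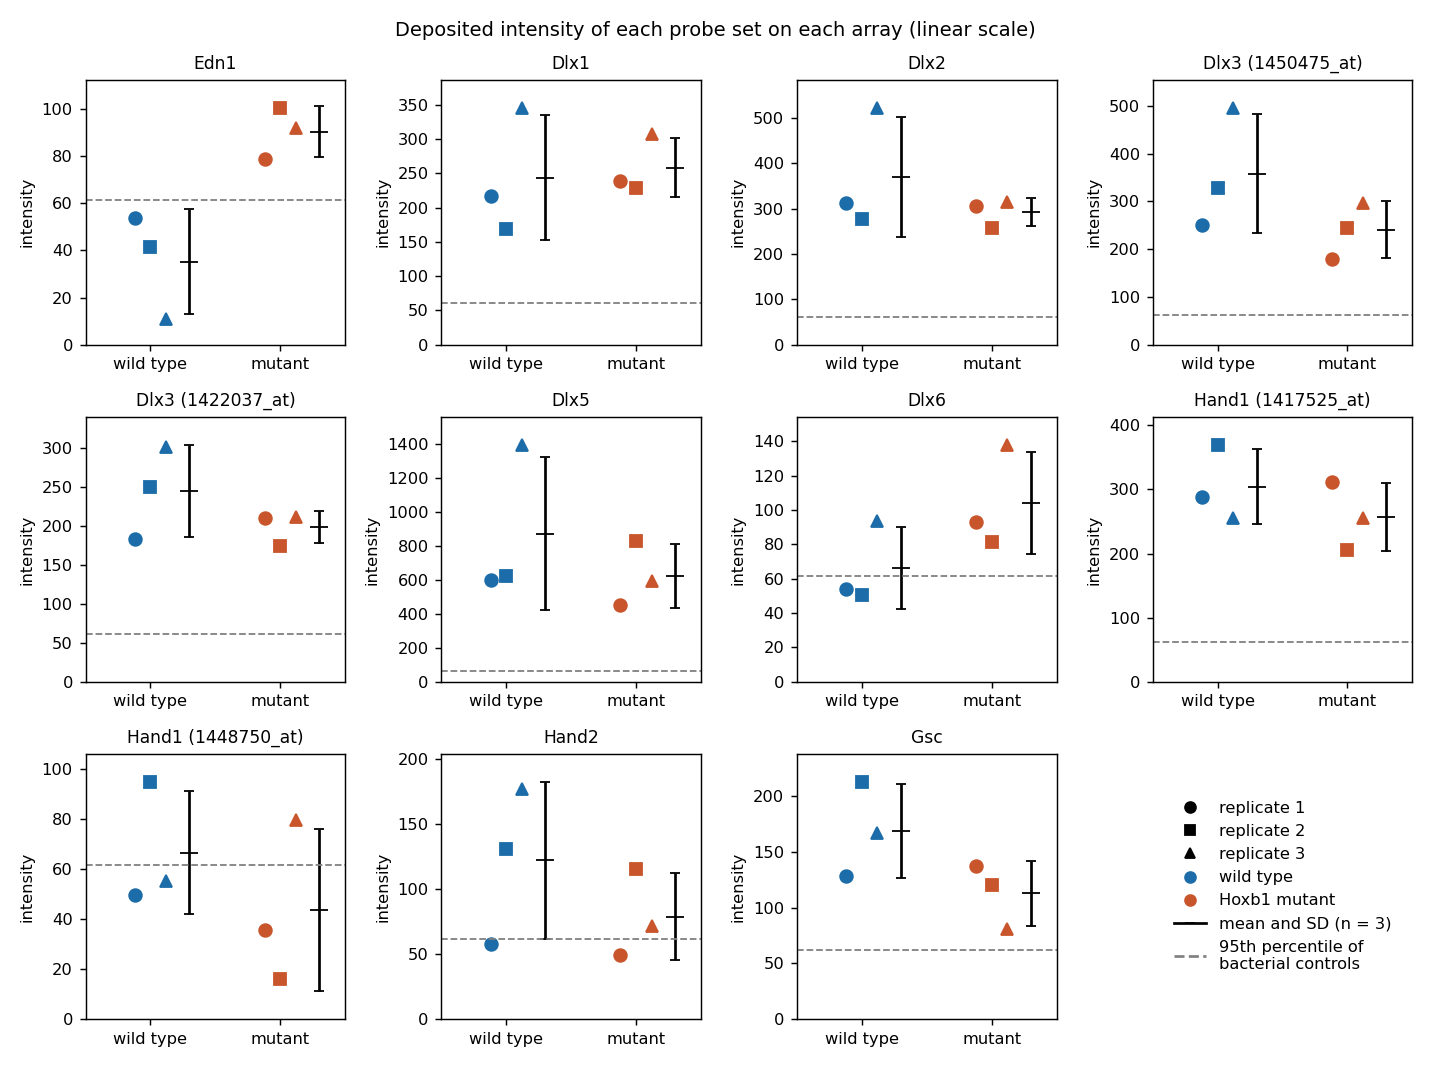
Intensity (linear axis from 0) of each of the 11 probe sets on the 3 wild-type and 3 Hoxb1 mutant arrays, with the mean and SD of each group and the 95th percentile of bacterial controls (61.5) as a dashed line. Edn1 is the panel whose groups do not overlap, and wild-type replicate 3 is the highest array in 6 panels.

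Edn1, the ligand, was higher in the mutant pools than in any wild-type pool. It read 53.8, 41.4 and 10.7 in the wild-type pools and 78.9, 100.4 and 91.8 in the mutant pools (35.3 ± 22.2 and 90.4 ± 10.9, mean ± SD, n = 3). Every wild-type array lay below the background level of 61.5 and every mutant array above it. With that level in place of the wild-type values, the mutant level was at least 1.46-fold higher. The highest bacterial control reading, 121.7, lay above every mutant value, so this bound holds only for the level of 61.5. The fitted log2 difference was 1.16 (SE 0.35, 95% interval 0.33 to 1.99), limma adjusted p = 0.833. Groups did not overlap in 1 of the 11 probe sets, this one, and in 12.0% of all probe sets; in the higher direction the share was 4.88%. Without wild-type replicate 3, the lowest array, the difference was 0.74, with the 18S signal as a covariate 0.71, and without wild-type replicates 2 and 3, which leaves 1 wild-type array, 0.60.

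Markers of tissues that secrete endothelin-1 overlapped between the groups. Summed intensity of 8 arch epithelium markers was 3850 to 4974 in wild type and 4041 to 4836 in mutants. That of 7 endothelial markers was 1852 to 2061 and 1814 to 2081. For core mesoderm, 6 cranial muscle markers summed to 637 to 784 and 703 to 915, with Myf5 below background on all arrays. By mean, 5 of the 8, 2 of the 7 and 4 of the 6 genes were higher in mutants, where 54.2% of all probe sets were lower. Wild-type replicate 3, the array lowest for Edn1, was also the lowest of the 6 for the epithelial sum. The part of these cells in the Edn1 difference was not tested.

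Among the Dlx genes, the pair Dlx1 and Dlx2, expressed proximally as well as distally, overlapped between the groups. Dlx1 read 217, 169 and 345 in the wild-type pools and 239, 229 and 307 in the mutant pools, a log2 difference of 0.13 (SE 0.26, 95% interval -0.49 to 0.74). All 3 mutant values lay within the wild-type range. Dlx2 read 312, 277 and 522 in the wild-type pools and 306, 258 and 314 in the mutant pools (-0.28, SE 0.24, interval -0.85 to 0.29). The mutant pools lay close to wild-type replicates 1 and 2, and replicate 3 stood above them all. The Dlx2 difference was -0.011 without wild-type replicate 3 and -0.45 without wild-type replicate 2. The Dlx1 difference had no stable sign: it was 0.39 without wild-type replicate 3, 0.0024 without mutant replicate 3 and -0.090 without wild-type replicate 2.

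The distal genes Dlx3 and Dlx5 had lower means in mutants, and both differences were smaller without wild-type replicate 3. Dlx5, which with Dlx6 sets the distal identity of arch crest, read 601, 620.4 and 1391 in the wild-type pools and 451, 825 and 590.5 in the mutant pools. Wild-type replicate 3 was 2.28 times the mean of the other wild-type arrays, and the remaining 5 arrays were interleaved. The log2 difference was -0.40 (SE 0.37, interval -1.28 to 0.48), and -0.015 without that array. Leaving out 1 of the other 5 arrays gave -0.20 (mutant replicate 1) to -0.62 (mutant replicate 2).

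Dlx3, a target of the distal programme that also acts in ectoderm, was read by both of its probe sets in the same direction. Probe set 1450475_at read 251, 328 and 496 in the wild-type pools and 179.5, 245 and 298 in the mutant pools (log2 difference -0.52, SE 0.28, interval -1.18 to 0.15). Probe set 1422037_at read 183, 249.7 and 301 in the wild-type pools and 209.7, 175 and 211 in the mutant pools (-0.26, SE 0.19, interval -0.72 to 0.20). In both, wild-type replicate 3 was the highest array and the groups overlapped. Without that array the differences were -0.27 and -0.11. That of 1450475_at was -0.33 without mutant replicate 1, -0.67 without mutant replicate 3 and -0.73 without wild-type replicate 1. That of 1422037_at was -0.44 without wild-type replicate 1. For 1422037_at the sign turned with the 18S covariate (0.063), with the crest mesenchyme signal as a covariate (0.033) and without wild-type replicates 2 and 3 (0.10).

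Dlx6 had a higher mean in mutants, unlike its neighbour Dlx5. It read 54.3, 50.7 and 93.9 in the wild-type pools and 93.2, 81.5 and 138 in the mutant pools, with 1 wild-type array and all 3 mutant arrays above the background level. Wild-type replicate 3 again stood above the other wild-type arrays, at 1.79 times their mean, and lay within the mutant range, so the groups overlapped. The log2 difference was 0.56 (SE 0.25, interval -0.049 to 1.16, limma adjusted p = 0.833). Single arrays left out moved it from 0.36 (mutant replicate 3) to 0.78 (wild-type replicate 3, limma adjusted p = 0.923).

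**Figure D2:**
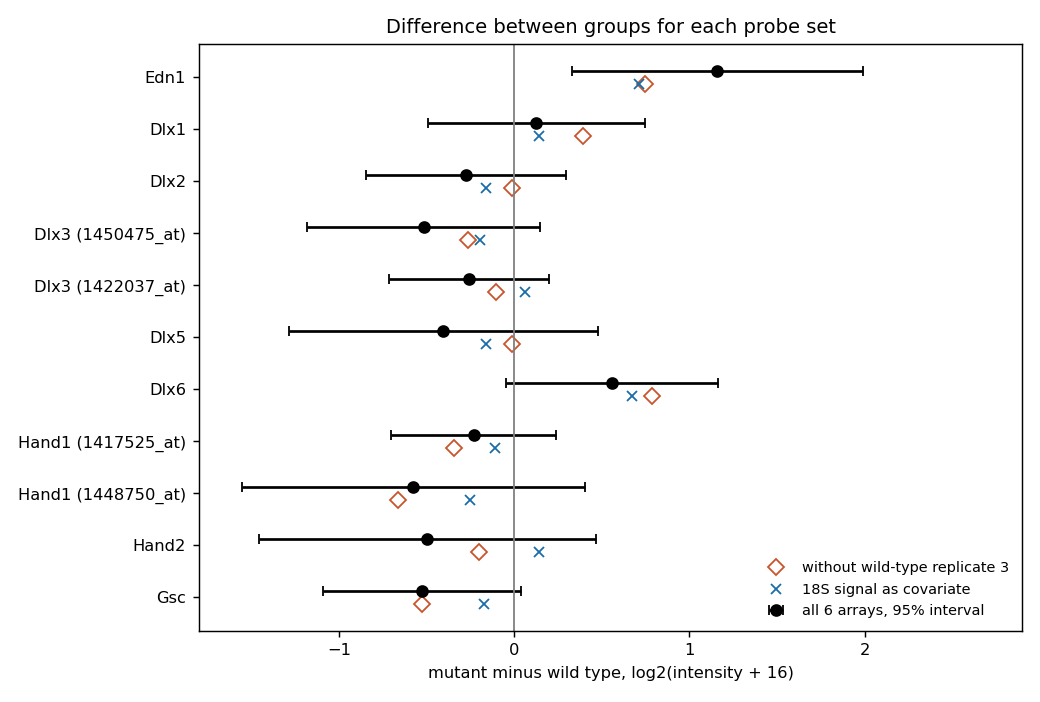
Difference of each probe set between mutant and wild-type means of log2(intensity + 16), with limma's 95% interval from all 6 arrays (black), and the same difference without wild-type replicate 3 (diamonds) and with 18S signal as a covariate (crosses). The Edn1 interval lies above 0, the other 10 intervals include 0, and Dlx2 and Dlx5 lie at -0.011 and -0.015 without wild-type replicate 3.

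The Hand genes, basic helix-loop-helix factors of distal arch crest and of the heart, had lower means in mutants with wide spread. Hand2 read 57.8, 130.4 and 177 in the wild-type pools and 48.9, 115 and 71.6 in the mutant pools. In each group 1 of the 3 arrays lay below the background level, and the groups overlapped (log2 difference -0.50, SE 0.40, interval -1.46 to 0.47). The Hand2 sign turned with the 18S covariate (0.14) and without wild-type replicates 2 and 3 (0.30), and was -0.20 without wild-type replicate 3. Of the other single arrays, leaving out mutant replicate 1 gave -0.25, mutant replicate 2 gave -0.76 and wild-type replicate 1 gave -0.89.

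Hand1 was lower by mean in both probe sets, and its highest array was wild-type replicate 2 in each. Probe set 1417525_at read 289, 369 and 255 in the wild-type pools and 312, 205 and 256 in the mutant pools (log2 difference -0.23, SE 0.20, interval -0.70 to 0.24). Probe set 1448750_at read 49.8, 94.7 and 55.2 in the wild-type pools and 35.4, 15.9 and 79.6 in the mutant pools, with 2 of the 6 arrays above background (-0.58, SE 0.41, interval -1.55 to 0.40). Single arrays moved both values. For 1417525_at the difference was -0.086 without mutant replicate 2, -0.090 without wild-type replicate 2 and -0.37 without mutant replicate 1. For 1448750_at it was -0.20 without mutant replicate 2, -0.34 without wild-type replicate 2 and -0.99 without mutant replicate 3 (limma adjusted p = 0.956). Unlike the Dlx genes and Hand2, Hand1 was not high in wild-type replicate 3, which lay at 0.776 and 0.764 times the mean of the other wild-type arrays.

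The heart is another site of Hand expression, and its markers were uneven among the wild-type pools. Of 8 heart markers, Tnnt2 and Myh6 were at or below the background level on all 6 arrays. The summed intensity of the 8 was 1492, 1448 and 773 in the wild-type pools and 1329, 1199 and 1437 in the mutant pools, lowest in wild-type replicate 3, where Hand2 was highest. By mean log2, 7 of the 8 were higher in mutants and 1 lower, where 54.2% of all probe sets were lower. Their median log2 difference was 0.16, and 0 had a limma unadjusted p under 0.05. The part of heart tissue in the Hand values was not tested. Sympathetic neurons also express Hand2, and the sum of 4 of their markers was 608 to 766 in wild type and 505 to 655 in mutants. By mean, 2 of the 4 were lower in mutants and 2 higher, where 54.2% of all probe sets were lower. The higher ones were Th (mean 201 in wild type and 225 in mutants) and Dbh (174 and 180). By limma's unadjusted p under 0.05, 2 of the 4 were lower and 0 higher, against 3.88% and 1.88% of all probe sets. Groups did not overlap in 2 lower and 0 higher, against 7.08% and 4.88%. None passed the adjusted threshold. Phox2a and Gata3, the 2 lower genes, are also made by hindbrain neurons, and the part of sympathetic neurons in the Hand2 values was not tested.

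Gsc, a homeobox gene at the distal end of the endothelin programme and needed for ear and jaw elements, had the smallest unadjusted p among the genes with lower means. It read 128, 212 and 167 in the wild-type pools and 137, 120.1 and 80.4 in the mutant pools (169 ± 42.1 and 113 ± 29.2, mean ± SD, n = 3). Mutant replicate 1 exceeded wild-type replicate 1, so the groups overlapped. The log2 difference was -0.53 (SE 0.24, interval -1.09 to 0.037, limma adjusted p = 0.833). It was -0.33 without mutant replicate 3, -0.36 without wild-type replicate 2, -0.52 without wild-type replicate 3, -0.17 with the 18S covariate and -0.19 without wild-type replicates 2 and 3. The difference was larger without wild-type replicate 1 (-0.69), mutant replicate 1 (-0.67) or mutant replicate 2 (-0.58).

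Wild-type replicate 3 was the highest of the 6 arrays for 6 of the 11 probe sets (Dlx1, Dlx2, both of Dlx3, Dlx5 and Hand2), where it was the highest for 20.2% of all probe sets. Its values were 1.39 to 2.28 times the mean of the other wild-type arrays in these 6, and 0.225 times in Edn1. Wild-type replicate 2 was the highest for Gsc and both Hand1 probe sets. The SD was larger in wild type than in mutants for 9 of the 11, and for 49.9% of all probe sets.

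**Figure D3:**
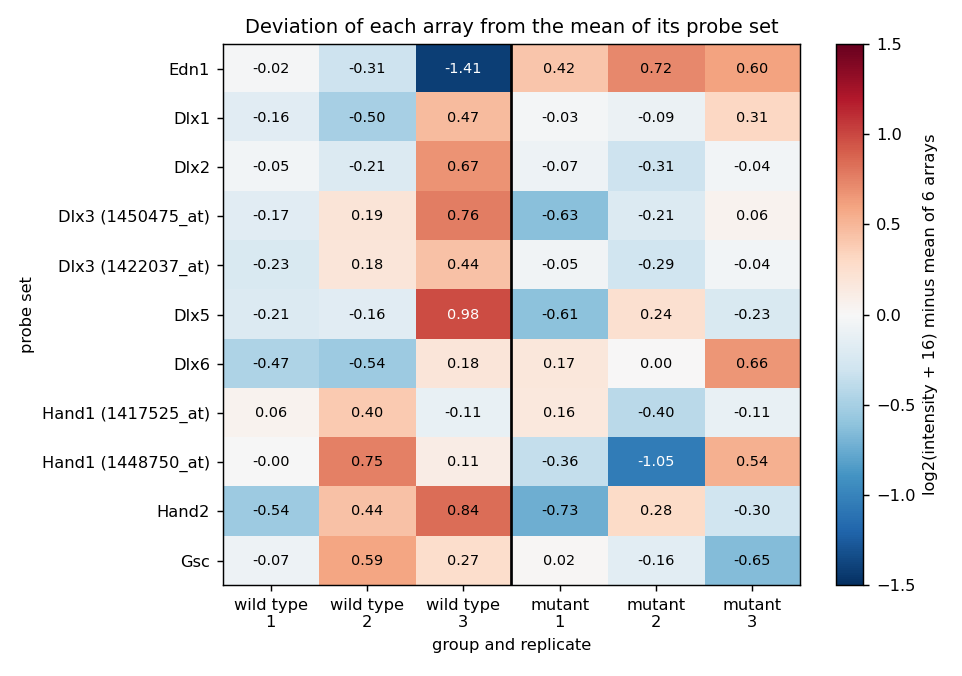
Deviation of each array from the 6-array mean of its probe set, in log2(intensity + 16), for the 11 probe sets (rows) on the wild-type and mutant arrays (columns). The wild-type replicate 3 column is 0.44 to 0.98 for Dlx1, Dlx2, Dlx3, Dlx5 and Hand2 and -1.41 for Edn1, and the mutant columns of Edn1 are 0.42 to 0.72.

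Genes listed as markers of the cells in which these genes act gave signal, and whether they mark those cells alone was not tested. All 10 measured markers of cranial crest mesenchyme were above background on all arrays, and so were the 8 epithelial markers. Their brightest were Col3a1, which read 4964 to 5177 in wild type and 4525 to 5011 in mutants, and Krt18. The summed crest mesenchyme intensity was 12750.4 to 13459 in wild type, highest in replicate 3, and 12149.5 to 12179 in mutants, so that every mutant pool lay below every wild-type pool. Of the 10 genes, 8 had a lower mean in mutants, where 54.2% of all probe sets were lower. Of them 0 passed limma's adjusted threshold and 0 had an unadjusted p under 0.05, and the median log2 difference was -0.058. Groups did not overlap in 1 of the 10, lower in mutants, against 7.08% of all probe sets. With the mean log2 crest signal as a covariate, 7 of the 11 probe sets of the arch genes were lower in mutants and 9 of the 11 differences were smaller in size; with the 18S signal the numbers were 6 and 9. The mean log2 crest signal was 9.74 in both wild-type replicates 2 and 3, the arrays of high 18S signal, and 9.59 to 9.65 on the other 4. Unlike the sum, it overlapped between the groups, at 9.60 in wild-type replicate 1 and 9.65 in mutant replicate 1.

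Of the other tissues that express Dlx genes, 6 otic vesicle markers summed to 824 to 933 in wild type and 631 to 934 in mutants, with Hmx3 below background throughout. By mean, 6 of these 6 were lower in mutants, where 54.2% of all probe sets were lower. Their median log2 difference was -0.20, and 0 had a limma unadjusted p under 0.05. The forebrain marker Nkx2-1 was below background on all arrays, and 4 forebrain markers summed to 279 to 310 and 238 to 310.4, with 2 lower and 2 higher by mean. Apart from these tissues, 9 neural tube markers summed to 8298 to 10491 in wild type, again highest in replicate 3, and 7356 to 8051 in mutants. In this sum, as for crest mesenchyme, every mutant pool lay below every wild-type pool. Unlike the crest signal, their mean log2 signal did not overlap either, at 9.44 to 9.78 in wild type and 9.26 to 9.40 in mutants. Of the 9 genes, 8 had a lower mean in mutants, where 54.2% of all probe sets were lower. By limma's unadjusted p under 0.05, 1 was lower and 0 higher, against 3.88% and 1.88%. Groups did not overlap in 2 lower and 0 higher genes, against 7.08% and 4.88%. None passed the adjusted threshold. The part of any of these tissues in the Dlx values was not tested.

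**Figure D4:**
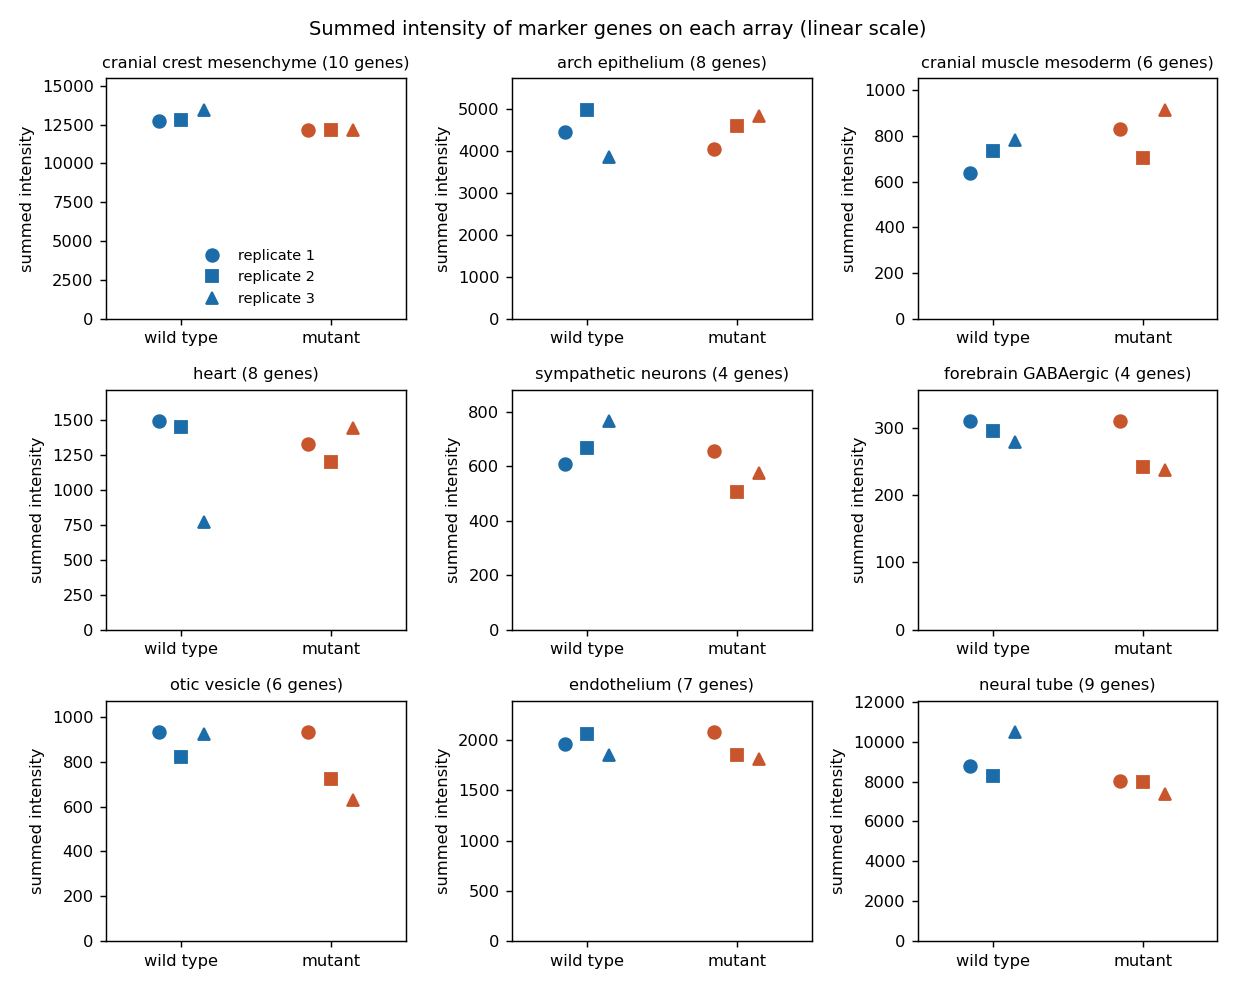
Summed intensity (linear axes from 0) of the measured markers of 9 tissues on each wild-type and mutant array, with 1 probe set per gene. Wild-type replicate 3 is the highest array for crest mesenchyme (13459) and the lowest for heart (773) and arch epithelium (3850).

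The wider arch pathway was read through a list of 41 genes that holds other endothelins and their converting enzymes, G proteins and phospholipases of the endothelin receptor, and arch transcription factors and signals. Of these, 36 were measured, each by its brightest probe set. By mean, 26 were lower and 10 higher, where 54.2% of all probe sets were lower. Some genes with several probe sets were read in different directions by them. None passed limma's adjusted threshold; by unadjusted p under 0.05, 2 were lower and 1 higher, against 3.88% and 1.88% of all probe sets. Groups did not overlap in 5 lower and 3 higher genes, against 7.08% and 4.88% of all probe sets. The median log2 difference of the list was -0.11. The genes of smallest p were Edn2, Jag1 and Pou3f3.

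Edn2, a second endothelin ligand, read 112, 93.4 and 118 in the wild-type pools and 78.5, 58.4 and 74.3 in the mutant pools, opposite in direction to Edn1 (log2 difference -0.52, SE 0.15, limma adjusted p = 0.796). Mutant replicate 2 lay below the background level of 61.5, and every Edn2 reading lay below the highest bacterial control reading, 121.7. Jag1, a Notch ligand of the proximal arch, gave 156, 167 and 278 and 328, 315 and 373 with its brighter probe set (0.75, SE 0.22, adjusted p = 0.817), while the other one gave a log2 difference of 0.057. Pou3f3, a POU factor of proximal arch crest, gave 174, 199 and 182 and 131, 157 and 145 (-0.33, SE 0.12, adjusted p = 0.833). In each of these 3 probe sets the groups did not overlap, but they were picked by smallest p, so this adds no separate support.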

How the data were processed

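Total RNA was labelled with biotin and hybridised to Affymetrix mouse 430 A arrays. The authors deposited, for each array, 1 linear intensity per probe set; the tool affy is named, without version, per the submitters' processing notes. The sources used here do not give the summary algorithm or the background correction. The deposited values had a mean of 500.0 on every array with 2% trimmed at each end, and were not normalized further. Of 64 control probe sets, none of which was tested, 27 bacterial ones gave the background level. Symbols came from the platform annotation, updated by Entrez identifier in RefSeq (GRCm38.p6): 20380 of the 22626 probe sets tested name 1 gene, 691 several and 1555 none.

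Values were transformed to log2(intensity + 16) and fitted with limma 3.58.1 in R 4.3.3 (lmFit, eBayes, 2-sided, no covariate); p-values were adjusted over the whole table (Benjamini-Hochberg). The fit was tested on simulated data. Every probe set of the 10 genes is given, and of the pathway list the 3 genes of smallest p are named. Of the marker lists, genes below background on all arrays are named, and the brightest for crest mesenchyme and epithelium. The genes and lists were chosen with earlier results of these data known. Alternatives were normalization, centring, pseudocount, low filter, variance prior, array weights, replicate block, covariates and leaving out arrays. The crest covariate, and the genes Dlx1as and Dlx6os2, were chosen after seeing the data.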

Additional observations from a re-analysis of the deposited data

How the results depend on the processing

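Over 17 alternatives the adjusted limma p of the 11 probe sets stayed between 0.489 and 1.00, and 176 of the 183 differences that could be computed kept their sign; the filter on dim probe sets removed Edn1, Dlx6, Hand2 and the dimmer Hand1 probe set. Edn1 ran from 0.60 to 1.60, the latter with a pseudocount of 1. Signs turned for Dlx1 when single arrays were left out (-0.090 to 0.39), for Dlx3 (1422037_at) with the 18S covariate (0.063), the crest covariate (0.033) and without wild-type replicates 2 and 3 (0.10), for Dlx5 without those 2 arrays (0.0078), and for Hand2 with the 18S covariate (0.14) and without those 2 arrays (0.30); the cause was not tested. The number of the 11 with unadjusted p under 0.05 was 1, against 0 with either covariate, 3 with the replicate block, and 1 to 5 when single arrays were left out, with 5 without wild-type replicate 1 and 2 without wild-type replicate 3 or any 1 mutant array. The values did not settle whether the replicate numbers pair the samples. Sample titles carry matching code numbers in both groups, but the labels state no pairing. Deviations of same-numbered arrays correlated at 0.053, -0.017 and 0.045, and 4 of 6 arrays correlated best with their own number. The replicate block changed no call at the adjusted threshold. Over all probe sets the number passing that threshold was 0, and 3 with quantile normalization, 4 with median centring, 2 with that filter, 3 with trend and robust settings and 4 with array weights; the number at unadjusted p under 0.05 was 1303, 2093 with array weights, and 1059 to 1975 when single arrays were left out, the highest without mutant replicate 1. Hoxb1 passed the threshold with median centring (-2.73), the low filter (-2.78), trend and robust settings (-2.78) and array weights (-2.83). Edn1, Dlx6, Hand2 and 1 Hand1 probe set lay near background, which limits their folds.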

Other observations

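Transcripts antisense to Dlx genes, which lie at the same loci, were also on the array. Dlx1as, which overlaps Dlx1, read 95.8, 145 and 228 in the wild-type pools and 129, 167 and 82.0 in the mutant pools, with overlapping groups and its highest value in wild-type replicate 3, as for Dlx1. Dlx6os2, antisense to Dlx6, lay below the background level on all 6 arrays.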
